A study of Homo sapiens with 6 samples.

Results

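Translation factors are the proteins that bring the ribosome, the initiator tRNA and the mRNA together and then drive peptide synthesis, and their mRNAs were examined here in T98G cells, an established human glioblastoma line. The members were the genes whose symbol begins with EIF1 to EIF6, EEF1 or EEF2, or is PABPC1 or PABPC4, after removal of 68 pseudogene symbols and 12 symbols of regulators such as the eIF4E-binding proteins and the eIF2 kinases. This left 56 of the 23026 genes with a normalized value, of which 54 were protein coding and 2 were antisense transcripts (EIF1B-AS1 and EIF3J-AS1). A lentivirus delivered either a control hairpin RNA (shControl, 3 libraries) or a hairpin RNA that targets the protein kinase DYRK1A (shDYRK1A, 3 libraries). Both groups were selected with puromycin, itself an inhibitor of translation, and left to recover without it before harvest. Both groups are populations of transduced cells of a single line, and the labels name no separate shRNA sequences within shDYRK1A. Insect cells (the Drosophila line Kc167) were added to the T98G cells in a constant amount as a spike-in, and human mRNA was scaled to their RNA. The 3 libraries of each group carry the letters 1A, 1B and 1C, and library values below are always given in that order.

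In cap-dependent initiation, eIF2 delivers the initiator tRNA to the small ribosomal subunit, and eIF2B is the exchange factor that reloads eIF2 with GTP. The small subunit also binds eIF3, the largest of the initiation complexes, and is brought to the mRNA by eIF4F, in which EIF4E binds the cap, EIF4G is the scaffold and EIF4A unwinds RNA. EIF1, EIF1A, EIF5 and EIF5B govern scanning, start codon choice and joining of the large subunit, after which eEF1A carries aminoacyl-tRNA to the ribosome and eEF2 moves it along the mRNA. Many of these factors are encoded by TOP mRNAs, which begin with a C followed by a run of pyrimidines and are known for joint control of their translation with the ribosomal protein mRNAs.

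The first bases of the mRNA could be read for 44 members from RefSeq promoter entries on GRCh38.p14. A start window with a C at the annotated start and at least 4 further pyrimidines was found for 13 of the 44 (29.5%), against 5.14% of all gene symbols with an entry. These were EEF1A1, EEF1B2, EEF2, EIF2A, EIF2D, EIF2S3, its retrogene copy EIF2S3L (EIF2S3B in current naming), EIF3D, EIF3F, EIF3K, EIF3M, EIF4A2 and EIF4B. EIF4E2 and EIF2B4, which had the highest fold changes of the members, and EIF4E3, among the lowest, had an entry but no such run. The windows below belong to the abundant elongation factors EEF1A1 and EEF2 and to the lowest and highest members with such a start. Each runs 5′ to 3′ from 10 bases before the start over 20 bases of transcript, and capitals mark the pyrimidine run that opens the transcript.
EEF1A1, chr6:73521013-73521042, minus strand: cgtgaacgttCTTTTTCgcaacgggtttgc
EEF2, chr19:3985444-3985473, minus strand: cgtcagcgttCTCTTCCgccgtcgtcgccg
EIF2S3, chrX:24054946-24054975, plus strand: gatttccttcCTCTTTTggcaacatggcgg
EIF4A2, chr3:186783567-186783596, plus strand: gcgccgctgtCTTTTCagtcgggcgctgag
EIF4B, chr12:53006446-53006475, plus strand: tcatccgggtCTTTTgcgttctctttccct
EIF3F, chr11:7987327-7987356, plus strand: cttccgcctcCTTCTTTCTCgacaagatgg
EIF3K, chr19:38619178-38619207, plus strand: tttccaccacCTCTTCCTgttcccgtcctt
The cap-binding gene EIF4E had no such run in its window, shown for contrast because EIF4E is the partner in the ratios described further on.
EIF4E, chr4:98929114-98929143, minus strand: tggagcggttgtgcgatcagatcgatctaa
The palindrome CTCGCGAG, the core of a promoter element linked to DYRK1A, was searched on both strands of the promoter entries (250 bases before to 50 bases after each start). It occurred for 0 of the 44 matched members and for 1.23% of all gene symbols with an entry. EEF1A2, EEF1D, EIF2S2, EIF3A, EIF3CL, EIF3E, EIF3G, EIF3H, EIF3J-AS1, EIF3L, PABPC1 and PABPC4 were not matched.

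Gene counts ranged from 33708297 to 42154438 per library, and division by the size factor that the deposited table implies gave totals from 40116360 to 48090252 in shControl and from 31230657 to 36658657 in shDYRK1A. In shControl, library 1C was the lowest of the 3 on this scale, and in shDYRK1A library 1B was. The methods of the study state equal T98G cell numbers per condition. Because the insect cells were the reference, the counts alone cannot tell fewer T98G cells in a mixture from less RNA per cell. DYRK1A itself had 2227, 2234 and 1895 normalized counts in shControl and 1482, 1056 and 1285 in shDYRK1A, for a log2 fold change of -0.73 ± 0.15 (SE, n = 3 and 3). Relative to other human genes, by the TMM scaling described below, its log2 fold change was -0.34 (adjusted p 0.000591 by edgeR). Of 9 marker genes listed for glioma lines, S100B was at 0 in all 6 libraries and GFAP and SOX2 were at or near 0, in CPM (raw counts scaled to a common library total). NES and OLIG2 of that list were low, at 1.29 to 2.02 and 1.06 to 1.87 CPM, and MGMT, EGFR, CD44 and VIM were at 20.9 CPM or more, with VIM and CD44 at 1401 or more. Immune, endothelial and epithelial markers did not exceed 1.68 CPM. Of the neuronal list, RBFOX3 had 1 count in all, and SNAP25 had 10.7, 11.2 and 9.83 CPM in shControl and 5.72, 5.61 and 6.06 in shDYRK1A.

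Of the 56 members, 50 passed the filter of more than 10 CPM on average. The 6 that did not were both antisense transcripts, EIF2S3L, EIF3CL, EIF5AL1 and EIF4A1. For EIF4A1, the main helicase of eIF4F, the low value cannot be read as its expression: every base of its principal transcript lies in exons of other genes on the same strand, and 6 pseudogene rows hold 308% of its own counts. The part of this overlap in the low value was not tested. The overlapping gene SENP3-EIF4A1 held 21 counts in all, and the counts of AC016876.2, which shares most of the EIF4A1 exon bases, were not examined. EIF4A1 was listed at 373, 368 and 282 normalized counts in shControl and 264, 139 and 191 in shDYRK1A, and no fold change is given for it. EEF1G had 0 counts in all 6 libraries, and 99.9% of its exon bases are shared with another gene, so its row says nothing of its expression. EIF5A2 had 1 count in all and EIF4E1B had 0. EIF3C and EIF3CL are near-identical copies between which reads can be split, and EIF3L and EIF6 share 44.8% and 22.0% of their principal transcripts with another gene, which leaves these values uncertain.

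With spike-in scaling, 45 of the 50 tested members had lower mRNA in shDYRK1A (90.0%, edgeR quasi-likelihood test, Benjamini-Hochberg adjusted p below 0.05 over all 9697 genes tested), against 63.4% of all genes. No member was higher, at an adjusted or an unadjusted p below 0.05 or by DESeq2, against 1.08% of all genes. The median log2 fold change of the members was -0.47 and that of all genes -0.40. In 46 of the 50, every shDYRK1A library lay below every shControl library, which held for 63.6% of all genes. A fall of more than 0.7 on the log2 scale was called for 7 members (14%), a share close to the 14.3% of all genes. These 7 were EIF2S3, EEF1A2, EIF4E3, EIF3H, EIF4A2, EIF4B and EIF3E, and the count past the fold was 2 without shDYRK1A 1B, 3 without shControl 1B, 4 without shControl 1A and 11 without shControl 1C or without shDYRK1A 1A. The count of 45 ranged from 30 without shControl 1A to 49 without shControl 1C, and was 35, 38, 34 and 46 without shControl 1B, shDYRK1A 1B, shDYRK1A 1C and shDYRK1A 1A. EIF1, EIF5A and EIF3G lost the spike-in call without shControl 1A, shControl 1B or shDYRK1A 1C, and EIF3I and EIF6 without each of these 3 and also without shDYRK1A 1B. EEF1D lost it without shControl 1A or shDYRK1A 1C, EIF5, EIF3C, EIF1AD and EEF1B2 without shControl 1A, and EIF4G2 without shDYRK1A 1B.

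To set the members against the other human genes, the same counts were scaled with TMM, which centers the bulk of genes on no change. On this relative scale 19 members were lower (38.0%, against 28.6% of all genes), 4 were higher (8%, against 27.3%) and 27 did not pass. The members that were higher relative to other genes were EIF4E2, EIF2B4, EIF3K and EIF3F. None of these 4 passed the test with spike-in scaling, where their log2 fold changes lay between -0.28 and 0.01, although EIF2B4, EIF3F and EIF3K were called lower on leaving out shControl 1C. The number higher was 1 without shControl 1C, when EIF4E2 alone was called, and 2 without shControl 1A, when EIF4E2 and EIF2B4 were.

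**Figure D1:**
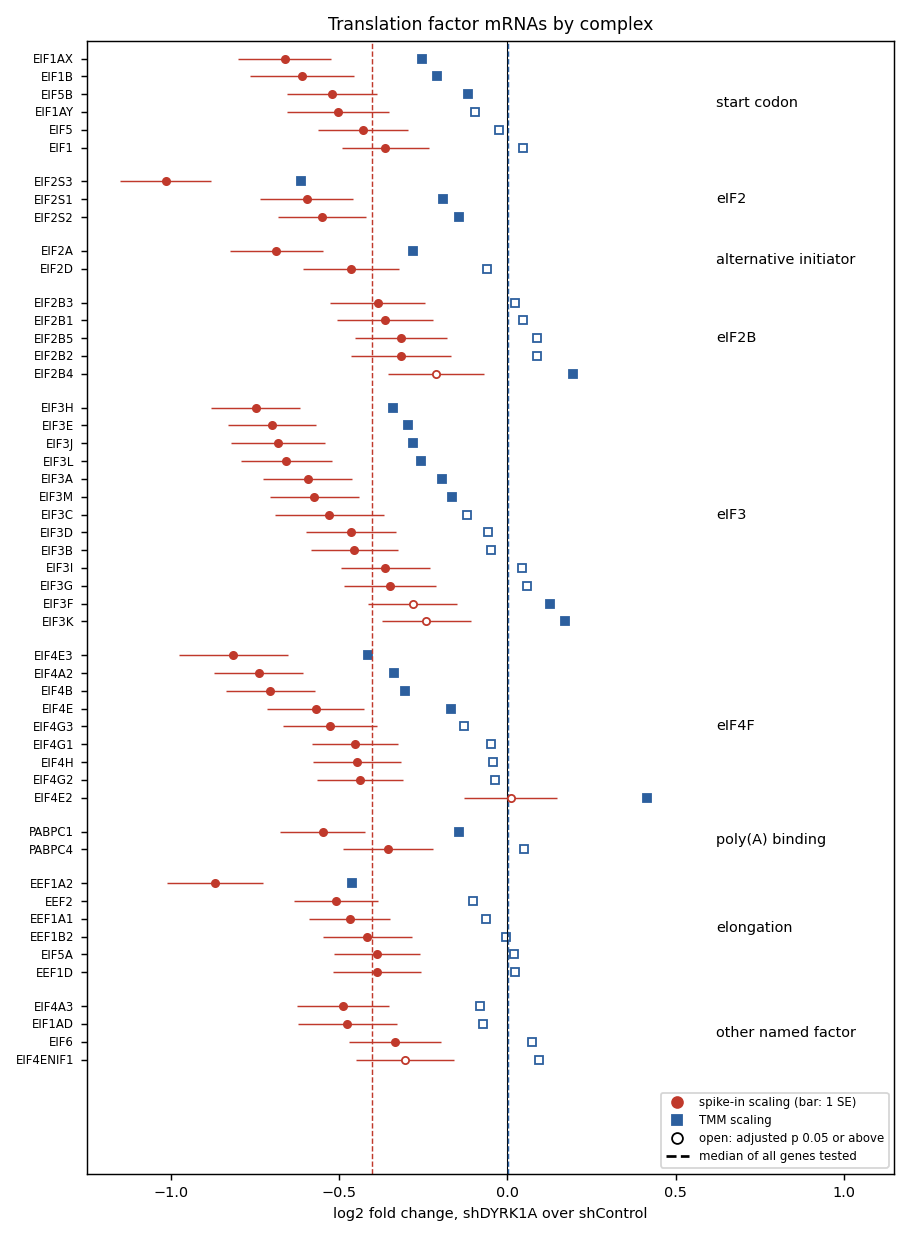
Log2 fold change (shDYRK1A over shControl, x axis) of the 50 tested members (y axis), grouped by complex, with spike-in scaling (circles, bars are 1 SE) and TMM scaling (squares). Filled symbols had an adjusted p below 0.05 and dashed lines mark the medians of all genes tested, -0.40 and 0.00. EIF2S3 lies farthest left and EIF4E2 farthest right on both scales.

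For the 3 subunits of eIF2 the median spike-in value was -0.60 on the log2 scale. It lies -0.20 from the median of all genes and is the lowest of the complexes. All 3 were lower with spike-in scaling (63.4% of all genes), and all 3 were also lower relative to other genes (28.6%). EIF2S3, on chromosome X, encodes the GTP-binding gamma subunit and had the lowest fold change of all 50 members. It had 12784, 12218 and 10594 normalized counts in shControl and 6452, 5302 and 5852 in shDYRK1A, so that its highest shDYRK1A library lay well under its lowest shControl library. Its log2 fold change was -1.02 ± 0.13 with spike-in scaling (SE, n = 3 and 3, adjusted p 2.48e-12 by edgeR) and -0.61 relative to other genes (adjusted p 3.11e-07 by edgeR). EIF2S1 encodes the alpha subunit, whose phosphorylation restrains initiation in stress. It had 5388, 4946 and 4225 normalized counts in shControl and 3499, 2946 and 3183 in shDYRK1A, for a log2 fold change of -0.60 ± 0.14 (adjusted p 8.43e-05 by edgeR). EIF2S2, the beta subunit, had the highest fold change of the complex, -0.55, and was -0.14 relative to other genes, a call lost without shControl 1A. The complex took 0.0840%, 0.0802% and 0.0807% of all gene counts in shControl and 0.0684%, 0.0676% and 0.0679% in shDYRK1A, with no overlap between the groups.

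The initiator tRNA carriers EIF2A and EIF2D, which act apart from eIF2, had spike-in log2 fold changes of -0.69 and -0.47 and were both called lower. EIF2A was also lower relative to other genes, at -0.28, and EIF2D did not pass on that scale, at -0.06.

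The exchange factor eIF2B gave the highest median of the complexes, -0.32, which is 0.08 above the median of all genes. All 5 of its subunits had a positive fold change relative to other genes, from 0.02 for EIF2B3 to 0.20 for EIF2B4, and only EIF2B4 passed the test (adjusted p 0.0223 by edgeR). That call did not survive leaving out shControl 1B, shControl 1C or shDYRK1A 1A. EIF2B4, a regulatory subunit, had 51.6, 46.0 and 47.2 CPM in shControl and 56.6, 58.8 and 52.8 in shDYRK1A, with all shDYRK1A libraries above all shControl libraries. With spike-in scaling EIF2B1, EIF2B2, EIF2B3 and EIF2B5 were called lower, at -0.36, -0.32, -0.39 and -0.32, and EIF2B4 was not, at -0.21. EIF2B5, the catalytic subunit, had 5302, 5032 and 4433 normalized counts in shControl and 4356, 3730 and 3771 in shDYRK1A, for a log2 fold change of -0.32 ± 0.14 (adjusted p 0.0351 by edgeR). The highest shDYRK1A value of EIF2B5 was only just under the lowest shControl value. All 4 calls were lost without shControl 1A, without shControl 1B and without shDYRK1A 1C, and those of EIF2B1, EIF2B2 and EIF2B5 also without shDYRK1A 1B, where EIF2B5 had an adjusted p between 0.0987 and 0.192 by edgeR over the 4 fits. The share of all gene counts taken by eIF2B was 0.0346%, 0.0329% and 0.0333% in shControl and 0.0362%, 0.0369% and 0.0351% in shDYRK1A, so it was higher in each shDYRK1A library while that of its substrate eIF2 was lower. A test of the difference between complexes was not made.

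**Figure D2:**
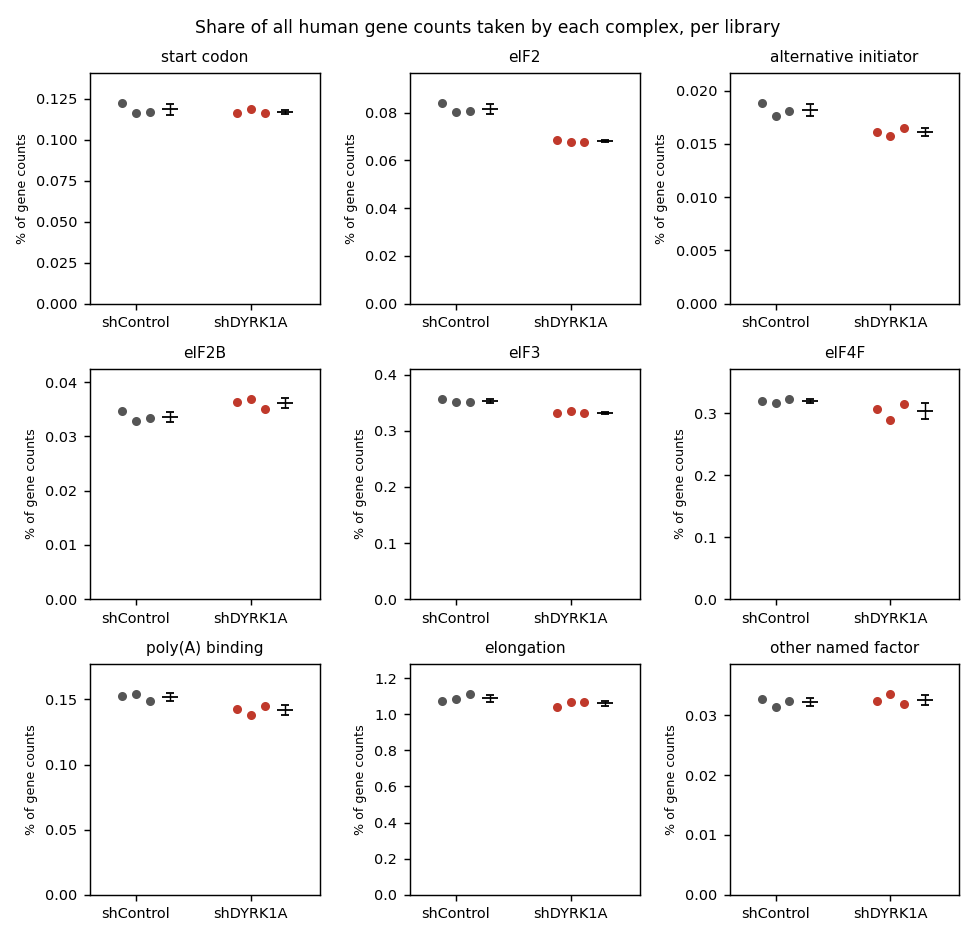
Percent of all human gene counts (y axis) taken by the members of each complex in each library, with gray points for shControl, red points for shDYRK1A, and black marks for the mean and SD of 3 libraries. The eIF4F share includes the EIF4A1 counts, which cannot be read as expression, and the elongation share lacks EEF1G. The eIF2 share was lower in every shDYRK1A library (0.0676% to 0.0684%, against 0.0802% to 0.0840%) and the eIF2B share higher, while the shares of the start codon factors overlapped.

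The factors of scanning and start codon choice had a median of -0.51. All 6 were lower with spike-in scaling, against 63.4% of all genes. EIF1AX, which helps to load the initiator tRNA, was the lowest of them, with 5437, 5509 and 4362 normalized counts in shControl and 3546, 2969 and 3159 in shDYRK1A. The groups did not overlap, and the log2 fold change was -0.66 ± 0.14 (adjusted p 1.27e-05 by edgeR). EIF1, which guards the choice of the start codon, was the highest, with 26818, 25261 and 21107 normalized counts in shControl and 20147, 18489 and 18261 in shDYRK1A and a log2 fold change of -0.36 ± 0.13 (adjusted p 0.0101 by edgeR). EIF1AX, EIF1B and EIF5B were also lower relative to other genes, at -0.25, -0.21 and -0.12, while EIF5, EIF1 and EIF1AY did not pass. EIF1B is a close paralog of EIF1, and EIF5B is the GTPase of subunit joining. The call for EIF1B was lost without shControl 1C, and that for EIF5B on leaving out shControl 1A, shControl 1C or shDYRK1A 1A.

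The subunits of eIF3 spread over a wide range of fold changes. Of the 13 tested, 11 were lower with spike-in scaling, against 63.4% of all genes. Fold changes ran from -0.75 for EIF3H to -0.24 for EIF3K around a median of -0.53. That median is the value of EIF3C, which is uncertain as reads can be split with EIF3CL. EIF3C had 230 normalized counts per kilobase in shControl. The next values on either side were -0.57 for EIF3M and -0.46 for EIF3D. Relative to other genes 6 were lower (EIF3H, EIF3E, EIF3J, EIF3L, EIF3A and EIF3M), 2 were higher (EIF3K and EIF3F) and 5 did not pass (EIF3C, EIF3D, EIF3B, EIF3I and EIF3G). EIF3H is a core subunit, encoded on chromosome 8 as EIF3E is, and had 16384, 16513 and 12905 normalized counts in shControl and 9880, 8355 and 9036 in shDYRK1A. Its log2 fold change was -0.75 ± 0.13 (adjusted p 2.23e-07 by edgeR), and -0.34 relative to other genes. EIF3E followed at -0.70 ± 0.13 (adjusted p 8.67e-07 by edgeR), falling from 25516, 24690 and 20966 normalized counts to 15873, 13623 and 14302. For both genes, each shDYRK1A library lay far below the lowest shControl library. EIF3A, the largest subunit and a scaffold of the complex, had 17610, 17368 and 14709 normalized counts in shControl and 12206, 9118 and 11611 in shDYRK1A, for a log2 fold change of -0.59 ± 0.13 (adjusted p 3.83e-05 by edgeR).

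At the other end of eIF3, EIF3K had 10523, 10525 and 8661 normalized counts in shControl and 8868, 8366 and 7910 in shDYRK1A, where the groups overlapped because shControl 1C was lower than shDYRK1A 1A. On the CPM scale they did not overlap, with 219, 220 and 216 in shControl and 242, 268 and 237 in shDYRK1A, and the fold change relative to other genes was 0.17 (adjusted p 0.0220 by edgeR). EIF3F had 215, 225 and 217 CPM in shControl and 235, 247 and 246 in shDYRK1A, a relative fold change of 0.13 (adjusted p 0.0294 by edgeR). The calls for EIF3K and EIF3F were lost without shControl 1A and without shControl 1C, and that for EIF3F also without shDYRK1A 1C. EIF3B, EIF3G and EIF3I, which form a module of eIF3, lay close together at -0.45, -0.35 and -0.36 with spike-in scaling and at -0.05, 0.06 and 0.04 relative to other genes.

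Within eIF4F and its helpers, 8 of the 9 tested members were lower with spike-in scaling, against 63.4% of all genes. The exception was EIF4E2. The median of the 9 was -0.53. EIF4E, the cap-binding protein of initiation, had 2756, 2787 and 2293 normalized counts in shControl and 1992, 1496 and 1790 in shDYRK1A, without overlap. Its log2 fold change was -0.57 ± 0.14 (adjusted p 0.000279 by edgeR), and -0.17 relative to other genes, a call lost without shControl 1B. EIF4E2, also called 4EHP, binds the cap in complexes that repress translation, and had 4461, 4157 and 3844 normalized counts in shControl and 4490, 4020 and 4038 in shDYRK1A. These values overlapped throughout, and the log2 fold change was 0.01 ± 0.14 (adjusted p 0.951 by edgeR), turning to -0.04 without shControl 1C or without shDYRK1A 1A. In CPM, EIF4E2 had 92.8, 86.9 and 95.8 in shControl and 122, 129 and 121 in shDYRK1A, a fold change of 0.41 relative to other genes (adjusted p 5.72e-05 by edgeR) that passed in all 6 fits with 1 library left out. EIF4E3, a further cap-binding paralog, was the lowest member of the group at -0.81 ± 0.16 (adjusted p 4.63e-06 by edgeR), with 827, 820 and 698 normalized counts in shControl and 494, 365 and 473 in shDYRK1A.

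EIF4G1, the main scaffold, had 37798, 36957 and 31869 normalized counts in shControl and 27939, 23204 and 26735 in shDYRK1A, for a log2 fold change of -0.45 ± 0.13 (adjusted p 0.00117 by edgeR). The other scaffolds EIF4G3 and EIF4G2 were at -0.53 and -0.44, and none of the 3 passed relative to other genes, at -0.05, -0.13 and -0.04 for EIF4G1, EIF4G3 and EIF4G2. EIF4A2, a helicase paralog of EIF4A1, had 15552, 16079 and 13705 normalized counts in shControl and 10009, 8117 and 9029 in shDYRK1A. EIF4B, which stimulates the helicase, had 21269, 21084 and 18841 in shControl and 13931, 11138 and 12489 in shDYRK1A. Neither gene's groups overlapped, and their log2 fold changes were -0.74 ± 0.13 and -0.70 ± 0.13 with spike-in scaling and -0.34 and -0.31 relative to other genes. EIF4H, a relative of EIF4B with a like role, was at -0.45 and did not pass relative to other genes, at -0.04.

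**Figure D3:**
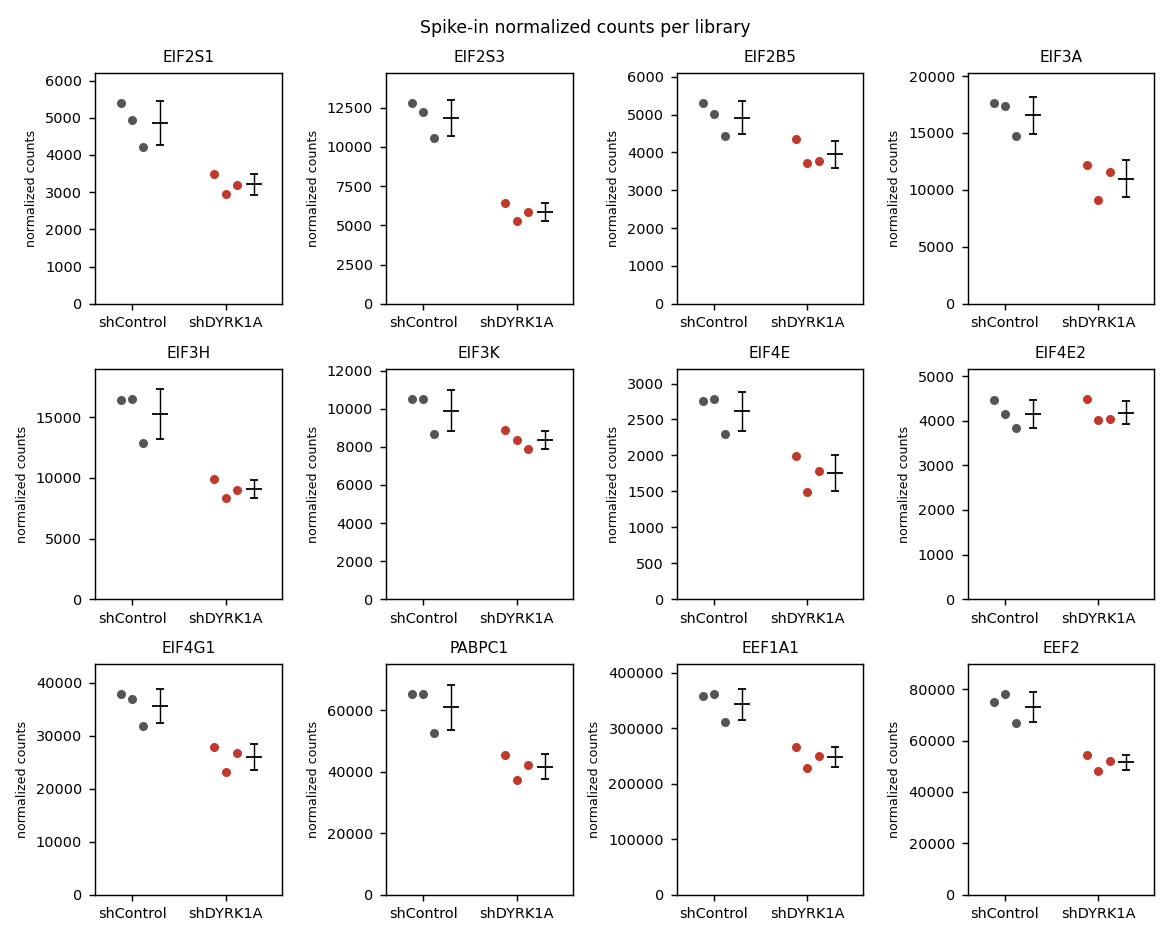
Spike-in normalized counts (y axis, from 0) of 12 members in each library, with gray points for shControl, red points for shDYRK1A, and black marks for the mean and SD of 3 libraries. The groups overlap for EIF3K and EIF4E2 and are apart for the other 10 genes, with the narrowest gap for EIF2B5.

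PABPC1, the main cytoplasmic poly(A) binding protein, had 65106, 65103 and 52520 normalized counts in shControl and 45440, 37273 and 42157 in shDYRK1A. The groups did not overlap, and its log2 fold change was -0.55 ± 0.13 (adjusted p 6.63e-05 by edgeR). Relative to other genes it was -0.14 (adjusted p 0.0145 by edgeR), a call lost without shControl 1A and without shControl 1B. PABPC4, its paralog, was at -0.35 ± 0.13 with spike-in scaling (adjusted p 0.0156 by edgeR), with 8432, 8496 and 7056 normalized counts in shControl and 6880, 5716 and 6161 in shDYRK1A, and at 0.05 relative to other genes. The spike-in call for PABPC4 was lost without shControl 1A, without shControl 1B, without shDYRK1A 1B and without shDYRK1A 1C.

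As a group, the elongation factors, without EEF1G, took the largest share of the complexes, 1.04% to 1.11% of all gene counts in every library. Most of this was EEF1A1, at 7274 to 7772 CPM. Per kilobase of principal transcript, EEF1A1 had 77410 normalized counts in shControl with the longest of its equally ranked transcripts and 178773 with the shortest, above every other member on either length, and EIF5A and EEF2 came next at 22823 to 31667 and 23143, an order between these 2 that the transcript chosen decides. EEF1A1, which carries aminoacyl-tRNA, had 358221, 361351 and 311768 normalized counts in shControl and 266656, 229052 and 249709 in shDYRK1A. Its groups were well apart, with a log2 fold change of -0.47 ± 0.12 (adjusted p 0.000343 by edgeR). EEF2, the translocase, had 74953, 77979 and 66738 normalized counts in shControl and 54312, 48191 and 51903 in shDYRK1A, for a log2 fold change of -0.51 ± 0.13 (adjusted p 0.000201 by edgeR). EIF5A, the hypusine-bearing factor that aids peptide bond formation, had 36880, 36644 and 29933 in shControl and 28582, 25030 and 25449 in shDYRK1A, for a log2 fold change of -0.39 ± 0.13 (adjusted p 0.00544 by edgeR).

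Relative to other genes, EEF1A1, EEF2, EIF5A, EEF1B2 and EEF1D did not pass, at -0.06, -0.10, 0.02, -0.00363 and 0.02. EEF1B2 and EEF1D belong to the exchange factor of eEF1A, and EEF1D was the highest of the elongation factors with spike-in scaling, at -0.39 ± 0.13 (adjusted p 0.00624 by edgeR). The member that did pass was EEF1A2, the paralog of EEF1A1 that is typical of neurons and muscle. EEF1A2 had 3552, 3570 and 3119 normalized counts in shControl and 1949, 1819 and 1840 in shDYRK1A, with narrow spread within both groups and a wide gap between them. The log2 fold change was -0.87 ± 0.14 with spike-in scaling (adjusted p 2.21e-08 by edgeR) and -0.46 relative to other genes (adjusted p 3.51e-05 by edgeR). The neuronal marker SNAP25 was also lower in every shDYRK1A library (5.61 to 6.06 CPM, against 9.83 to 11.2), while RBFOX3 was at or near 0 in all 6, and their part in the result was not tested.

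Other factors that carry an EIF name but act elsewhere were near the median of all genes, at -0.40 over 4 genes, and none passed relative to other genes. EIF4A3, the helicase of the exon junction complex, was the lowest at -0.49 ± 0.14 (adjusted p 0.00106 by edgeR), EIF1AD was at -0.48 and EIF6, which keeps the ribosomal subunits apart, was at -0.33. EIF4ENIF1, the transporter of eIF4E, did not pass, at -0.31 ± 0.15 (adjusted p 0.0545 by edgeR), with 2051, 2104 and 1778 normalized counts in shControl and 1788, 1407 and 1604 in shDYRK1A.

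Ratios between paralogs are free of any scaling between libraries, and 8 pairs had enough counts to be compared. For each 100 counts of EIF4E there were 162, 149 and 168 counts of EIF4E2 in shControl and 225, 269 and 226 in shDYRK1A, a shift of the log2 ratio of 0.59. In the same libraries EIF4E3 had a lower ratio, from 30.0, 29.4 and 30.4 counts per 100 of EIF4E to 24.8, 24.4 and 26.4, a shift of -0.25. Neither ratio's groups overlapped. For each 100 counts of EEF1A1 there were 0.992, 0.988 and 1.001 of EEF1A2 in shControl and 0.731, 0.794 and 0.737 in shDYRK1A, a shift of -0.40. PABPC4 had a higher ratio to PABPC1, from 13.0, 13.0 and 13.4 to 15.1, 15.3 and 14.6 counts per 100, a shift of 0.19, and EIF1B had a lower ratio to EIF1, with a shift of -0.25. Each of these 5 ratios, and that of EIF4G3 to EIF4G1 with a shift of -0.08, separated the groups completely, at a two-sided exact permutation p of 0.1, the smallest that 3 against 3 allows, and 0.133 after adjustment over the 8 pairs. How often other pairs of genes separate the groups was not computed, so the separation is not shown to be particular to paralogs. With TMM scaling 28.6% of all genes were lower and 27.3% higher. The ratio of EIF4G2 to EIF4G1 overlapped between the groups (a shift of 0.01, exact permutation p 0.8), as did that of EIF4A2 to EIF4A1 (0.08, exact permutation p 0.8), which is uncertain because the EIF4A1 counts are.

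**Figure D4:**
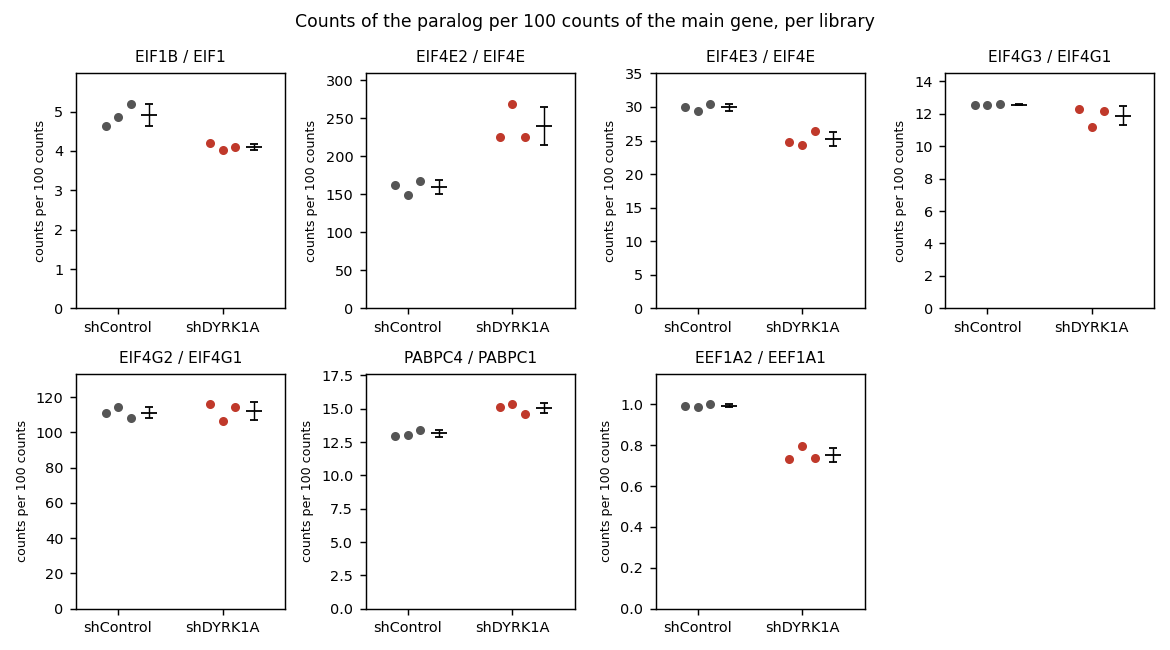
Counts of a paralog per 100 counts of the main gene (y axis, from 0) in each library for 7 pairs, with gray points for shControl, red points for shDYRK1A, and black marks for the mean and SD of 3 libraries. EIF4E2 per 100 EIF4E counts is higher in every shDYRK1A library (225 to 269, against 149 to 168) and EEF1A2 per 100 EEF1A1 counts is lower, while EIF4G2 per 100 EIF4G1 counts overlaps.

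Members with and without a pyrimidine start were set side by side, with no test of the difference. The 12 tested members with such a start had a median spike-in log2 fold change of -0.49, and the 28 with an entry but no such start had -0.45. Pyrimidine runs open the window of EIF2S3, the lowest member, and also those of EIF3F and EIF3K, which were higher relative to other genes. Of the 12, 5 were lower and 2 higher relative to other genes, and of the 28 it was 7 and 2. The shares of all genes were 28.6% lower and 27.3% higher. A fall past the fold was called for 3 of the 12 and for 1 of the 28, against 14.3% of all genes. The 10 tested members that were not matched to an entry, EIF3H, EIF3E and PABPC1 among them, had a median of -0.57. Of these, 10 were lower by spike-in scaling, 3 of them past the fold, and 7 were lower relative to other genes. A list of known TOP mRNAs among the members (11 genes tested) had a median of -0.51, with 9 called lower with spike-in scaling. Relative to other genes, 5 of the 11 were lower and 2 higher. With spike-in scaling, 63.4% of all genes were called lower.

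Regulators and partners of these factors were taken from a fixed list of 50 genes, 42 of which were tested. With spike-in scaling 33 were lower, in a data set where 63.4% of all genes were, and 0 were higher by edgeR, by an unadjusted p below 0.05 or by DESeq2. The count lower was 18 without shControl 1A, 19 without shControl 1B or without shDYRK1A 1C, and 22 without shDYRK1A 1B. The median of the list was -0.42 against -0.40 for all genes. Relative to other genes 14 of the 42 were lower and 9 higher, where the shares of all genes were 28.6% and 27.3%. Among the kinases and phosphatases of eIF2, PPP1R15B, the constitutive subunit that directs dephosphorylation of the alpha subunit, was the lowest of the list. It had 4134, 4068 and 3574 normalized counts in shControl and 2133, 1532 and 1936 in shDYRK1A, for a log2 fold change of -1.07 ± 0.14. The kinase EIF2AK1 was higher relative to other genes (0.27), EIF2AK2 was lower (-0.20), and EIF2AK4, the sensor of amino acid shortage, did not pass on that scale (0.07) and was -0.33 with spike-in scaling.

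Among regulators of the mRNA 5′ end, EIF4EBP1, which holds EIF4E inactive, had 4788, 4868 and 4245 normalized counts in shControl and 3480, 3191 and 3182 in shDYRK1A. This was a log2 fold change of -0.50, and of -0.09, which did not pass, relative to other genes. EIF4EBP2 (-0.19), LARP1, a binder of TOP mRNAs (-0.26), NCBP1, the large subunit of the nuclear cap-binding complex (-0.21), and CTIF (-0.37) were lower relative to other genes. MKNK1, a kinase of EIF4E, PDCD4, an inhibitor of EIF4A, and the helicase DHX29 were higher relative to other genes, at 0.41, 0.41 and 0.19, and with spike-in scaling they did not pass, at 0.01, 0.01 and -0.22. MKNK1 had 2376, 2333 and 1805 normalized counts in shControl and 2486, 1978 and 2074 in shDYRK1A, which overlapped as those of EIF4E2 did.

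EEF2K, the kinase that inhibits EEF2, had 1986, 2113 and 1768 normalized counts in shControl and 1241, 1011 and 1124 in shDYRK1A, for a log2 fold change of -0.80 ± 0.15, and -0.40 relative to other genes. Of the enzymes that modify EEF2 and EIF5A, DPH5 was lower relative to other genes (-0.21), and DPH1 (0.18), DPH2 (0.16) and DHPS (0.16) were higher. On that scale DPH3 (-0.06), DPH7 (0.02), DOHH (0.05) and EEF2KMT (0.06) did not pass. The median over the 9 factors of termination, recycling and rescue was -0.45, and all 9 were lower with spike-in scaling, against 63.4% of all genes. The calls of ABCE1, DENR, HBS1L and PELO held in all 6 fits with 1 library left out. ETF1 lost its call without shControl 1A, GSPT1 without shDYRK1A 1B, shControl 1A or shControl 1B, and GSPT2 without each of these 3 and also without shDYRK1A 1C. MCTS1 lost it without shControl 1A, shControl 1B or shDYRK1A 1C, and ZNF598 without shControl 1B or shDYRK1A 1C. Relative to other genes ABCE1, the recycling ATPase, was the lowest of them at -0.39, followed by HBS1L (-0.25), PELO (-0.23) and DENR (-0.21), while ETF1, the release factor that reads stop codons, was at -0.02 and did not pass. Of the partners of PABPC1, PAIP1, which stimulates translation, was lower (-0.14) and PAIP2, which inhibits it, was higher (0.25). The selenocysteine factors SECISBP2 and EEFSEC were lower and higher, at -0.30 and 0.23. Of these relative calls, EIF2AK2 was lost on leaving out shControl 1B, shControl 1C or shDYRK1A 1A, DPH1 on leaving out shControl 1A, shControl 1C or shDYRK1A 1C, and EEFSEC on leaving out shControl 1A, shControl 1C or shDYRK1A 1B. DHPS was lost without shControl 1A, and PAIP1 and DPH2 without shControl 1B. With spike-in scaling, EIF2AK4 was lost without shControl 1A, shControl 1B, shDYRK1A 1B or shDYRK1A 1C.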

How the data were processed

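RNA-seq counts of 6 T98G libraries were analyzed. Per the labels and the methods of the study, stranded mRNA libraries were sequenced as paired-end reads, STAR and DESeq2 were used, and the builds were hg38 for human and dm3 for Drosophila. The authors deposited raw counts per gene for each library (58174 rows) and a table of spike-in normalized signal values, whose every column equaled the raw count divided by 1 size factor per library. A table of the authors' own comparison was not used. Gene coordinates matched GENCODE v29 for 95.8% of rows.

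Raw counts were tested with edgeR 4.0.16 (robust quasi-likelihood, R 4.3.3) using those size factors, and again with TMM factors over the human genes, in 9697 genes with more than 10 CPM on average. Alternatives were DESeq2 1.42.0, other scalings and filters, a replicate block and each library left out. P-values were adjusted with the Benjamini-Hochberg method over all 9697 genes. SEs were derived from the fold change and the F statistic. Paralog ratios used log2 of counts plus 0.5. The edgeR steps were checked on simulated counts. The methods of the study state in general that experiments were repeated independently at least 3 times. They do not say of these libraries whether the 3 of a group came from separate cultures. P-values therefore measure only the spread between these libraries. Values per kilobase used the APPRIS principal transcript. The named members were a preset list of 11, the lowest and highest tested member of each complex, and all past the fold with spike-in scaling or past the test with TMM. The members and lists were chosen with earlier results of these data known.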

Additional observations from a re-analysis of the deposited data

How the results depend on the processing

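Scaling moved the counts of calls with spike-in scaling. In place of 45 lower members with spike-in scaling there were 19 with TMM and 19 with median-of-ratios scaling, in place of 7 past the fold there were 0 and 0, and in place of 0 higher there were 4 and 4. Fold changes turned positive under TMM and median-of-ratios scaling for EEF1D (0.0214 and 0.0244), EIF1 (0.0474 and 0.0505), EIF2B3 (0.0215 and 0.0247), EIF2B4 (0.196 and 0.199), EIF2B5 (0.0873 and 0.0904), EIF3F (0.127 and 0.13), EIF3K (0.17 and 0.173), EIF4ENIF1 (0.095 and 0.0981), EIF5A (0.0202 and 0.0233) and PABPC4 (0.0499 and 0.053), since both scalings set the median of all genes near 0. With each library left out in turn, the count lower ranged from 30 to 49, the count past the fold from 2 to 11, the TMM counts from 16 to 23 lower and from 1 to 4 higher, and the EIF4E2 fold change from -0.0438 to 0.0643. Medians relative to all genes ranged from -0.224 to -0.155 for eIF2 and from -0.186 to -0.0666 for eIF3, the EIF4A2 to EIF4A1 ratio from -0.0747 to 0.235 and the EIF4G2 to EIF4G1 ratio from -0.0118 to 0.0507. Relative medians also moved to -0.31 for eIF2 and -0.10 for elongation with a mean in place of the median, to -0.340, -0.0839 and -0.145 with the filterByExpr filter for eIF2, poly(A) binding and start codon factors, and to 0.0671, -0.148 and -0.0744 with canonical subunits only for the other named factors, poly(A) binding and start codon factors, where fewer or other genes entered the median. With the library letter as a replicate block, 44 members were lower, 6 past the fold and 0 higher with spike-in scaling, and 20 lower and 4 higher with TMM. The letters were not taken as a pairing, because correlations of deviations across genes for the same letter were 0.151, 0.0730 and 0.128, although each library correlated best with its own letter. DESeq2 and both other filters left all 5 counts within 1.5 times.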
